A study of Zea mays with 2 samples.

Results

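Level 0 domains of at most 100 kb were examined in Hi-C data from whole leaves of the maize inbred line B73 at development stage v04. Level 0 is the outermost layer of the hierarchical TAD-like domains called in each replicate, and these small domains were selected on their measured size alone. There were 1148 of them among 7131 level 0 domains in replicate 1 and 1251 among 7257 in replicate 2. Both replicates belong to 1 condition, greenhouse plants with no treatment named, and each came from 4 plants, so that no comparison between conditions exists. Whole leaf tissue was ground, so a domain that differs between cell types cannot be told apart from one shared by all of them.

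A TAD-like domain is a stretch of chromosome whose DNA contacts itself more often than it contacts the stretches beside it. Large plant genomes are partitioned into such domains mainly along blocks of active and repressed chromatin, and a domain can hold smaller sub-domains, which carry higher level numbers here. A chromatin loop is a pair of places, its anchors, that contact each other more often than their surroundings, and in maize loops are known to join active, gene-rich stretches that lie apart along a chromosome.

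Coordinates are those of B73 AGPv4, chromosomes 1 to 10, and domain boundaries fall on a grid of 10 kb. A loop end is 1 anchor of 1 loop, placed in the level 0 domain that holds the middle of the anchor. The loop lists held 16863 loops in replicate 1 and 25628 in replicate 2. Replicate 1 had 5715 loops with 5-kb anchors, 6884 with 10-kb anchors and 4264 with 25-kb anchors, while replicate 2 had 10-kb anchors alone, so levels are compared within a replicate. The median number of contacts behind a loop was 21 in replicate 1 and 32 in replicate 2. Total sequencing depth is not in the lists. Intervals are 95% Wilson intervals, which take domains or loops as independent and reflect nothing but counting error, and values of both replicates are also given as mean ± SD (n = 2) where the replicates are summarised.

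Small domains made up 16.1% of level 0 domains in replicate 1 (interval 15.3 to 17.0%) and 17.2% in replicate 2 (interval 16.4 to 18.1%), but only 4.46% and 4.86% of the length that level 0 domains cover. Their total length was 93.2 Mb in replicate 1 and 101.4 Mb in replicate 2. No level 0 domain was under 50 kb in either replicate. From 50 to 100 kb in steps of 10 kb, the numbers were 42, 140, 212, 245, 267 and 242 in replicate 1, and 54, 166, 202, 274, 281 and 274 in replicate 2. The median was 80 kb in both. Numbers did not break at the size limit, since 242 and 274 domains of 100 kb lay just inside it and 247 and 260 domains of 110 kb just outside it. Most domains of this size were not at level 0. Of all domains of up to 100 kb at any level, 27.3% were at level 0 in replicate 1 (interval 26.0 to 28.7%) and 27.1% in replicate 2 (interval 25.8 to 28.4%), and the remaining 3050 and 3370 were sub-domains.

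**Figure D1:**
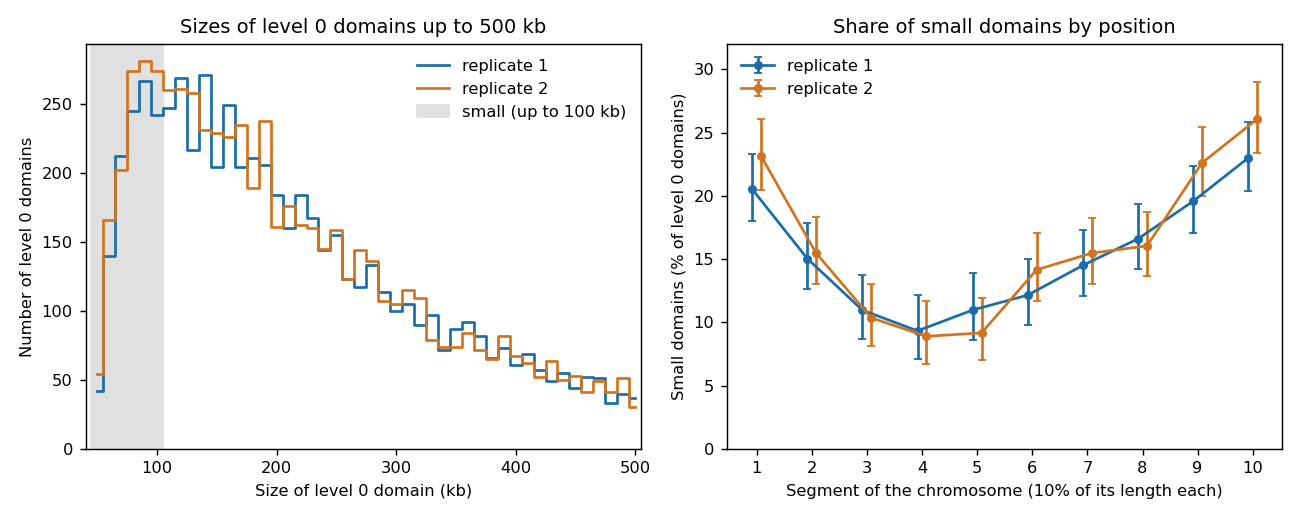
The left plot gives the number of level 0 domains at each size in kb up to 500 kb, for both replicates, with small domains shaded; the counts climb to 267 and 281 at 90 kb with no step at the limit. The right plot gives the share of level 0 domains that were small (percent, with 95% Wilson intervals) in each of 10 equal segments of a chromosome; it is lowest in segment 4, 9.32% and 8.89%, and highest in segment 10, 23.0% and 26.1%.

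Nearly all small domains were undivided. A domain without any sub-domain was found for 1145 of 1148 small domains in replicate 1 and 1249 of 1251 in replicate 2 (99.8% ± 0.0717), against 49.7% ± 2.19 of all other level 0 domains and 84.7% ± 1.46 of those of 110 to 200 kb (SD, n = 2). Because no domain of any level was under 50 kb, only domains of 100 kb could be split into a pair, which limits this share by size. The exceptions were all of 100 kb. In replicate 1 they were chr2:201900001-202000000 and chr5:206250001-206350000 with 2 sub-domains each and chr10:143160001-143260000 with 1, and in replicate 2 chr5:206250001-206350000 with 2 and chr7:179680001-179780000 with 1. The domain of chromosome 5 thus had the same outline and was divided in both replicates.

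Small domains lay more towards the chromosome ends than other level 0 domains did. Distal regions are taken here as the 20% of a chromosome's length at either end. With each domain placed by its middle, 58.0% of small domains in replicate 1 (interval 55.1 to 60.8%) and 60.8% in replicate 2 (interval 58.0 to 63.4%) were distal. Of all other level 0 domains, 45.1% and 44.4% were there. The distal share was higher for small domains than for other level 0 domains on every one of the 10 chromosomes in both replicates. The gap was widest on chromosome 2, with 70.9% of small against 48.9% of other domains in replicate 1 and 76.9% against 47.3% in replicate 2. It was narrowest on chromosome 4 in replicate 1, with 44.0% against 43.1%, where 48.3% against 41.1% was found in replicate 2. Level 0 domains of all sizes were also shorter at the ends, with a median of 170 kb in the first 10% of the chromosome length and 300 kb in the fourth 10% in both replicates, so small domains and domain size followed the same gradient.

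With each chromosome cut into 10 equal segments, the share of level 0 domains that were small was 20.5% in segment 1, 9.32% in segment 4, 14.5% in segment 7 and 23.0% in segment 10 for replicate 1. For replicate 2 the same segments gave 23.2%, 8.89%, 15.5% and 26.1%. Of the 20 first and last level 0 domains of the chromosomes, 3 were small in replicate 1 (15%, interval 5.24 to 36.0%) and 1 in replicate 2 (5%, interval 0.888 to 23.6%), so that both intervals held the share of all level 0 domains. Chromosomes differed less than positions did, with shares of 12.6% (chromosome 4) to 18.0% (chromosome 5) in replicate 1 and 13.7% (chromosome 6) to 19.2% (chromosome 7) in replicate 2.

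In windows of 5 Mb, the median number of small domains was 2 in both replicates, and 75 of 426 windows in replicate 1 and 60 in replicate 2 held none, 25 of them in both. The window with most small domains was chr10:145000001-150000000 in replicate 1, with 15 among 34 level 0 domains, where replicate 2 had 10 among 29. In replicate 2 it was chr5:210000001-215000000, with 14 among 33, where replicate 1 had 9 among 25. The 2 replicates ranked windows in a similar order, with Pearson's r of 0.625 and Spearman's rho of 0.599 over 426 windows. Windows are not independent and share the gradient along the chromosome. The longest stretches without any small domain were chr2:130940001-153700000 in replicate 1 (22.8 Mb, 48 level 0 domains) and chr3:87050001-113150000 in replicate 2 (26.1 Mb, 61 level 0 domains).

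Small domains followed each other directly in part of the cases. Another small domain abutted on at least 1 side of 33.4% of small domains in replicate 1 (interval 30.8 to 36.2%) and 36.1% in replicate 2 (interval 33.5 to 38.8%), against 27.7% (interval 26.6 to 28.8%) and 29.3% (interval 28.2 to 30.5%) of all other level 0 domains. In distal regions the share was 40.5% against 33.3% in replicate 1 and 43.0% against 37.1% in replicate 2. In the middle 60% of the chromosomes it was 23.7% (interval 20.1 to 27.6%) against 23.1% in replicate 1 and 25.5% (interval 21.8 to 29.5%) against 23.1% in replicate 2, within counting error. Whether the gap differed between distal and middle regions was not tested. Small domains on both sides were found for 4.18% of small domains in replicate 1 and 5.44% in replicate 2, against 2.56% and 2.60% of the others.

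Most small domains stood alone, 764 in replicate 1 and 799 in replicate 2. Runs of abutting small domains numbered 168 in replicate 1, with 124 of 2 domains, 40 of 3 and 4 of 4. In replicate 2 there were 192 runs, with 143 of 2 domains, 36 of 3, 7 of 4 and 6 of 5. These runs held 384 and 452 small domains.

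The neighbours of small domains were slightly smaller than those of other level 0 domains. Position was not matched in this comparison. Small domains lay more towards the chromosome ends, where level 0 domains of all sizes were shorter. Before and after a small domain, the median size of level 0 domains was 200 kb (quartiles 120 and 350 kb) for replicate 1 and 190 kb (quartiles 120 and 330 kb) for replicate 2, against 220 and 210 kb beside other level 0 domains. Both neighbours exceeded 200 kb for 25.7% of small domains in replicate 1 (interval 23.2 to 28.3%) and 23.0% in replicate 2 (interval 20.8 to 25.5%), against 29.8% (interval 28.6 to 30.9%) and 29.0% (interval 27.8 to 30.1%) of other level 0 domains. Gaps without a level 0 domain were rare beside small domains, with 2.27% and 2.64% of neighbours reached across a gap in replicates 1 and 2, against 2.18% and 2.82% for other level 0 domains.

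The longest run of replicate 1 was chr3:222330001-222700000, with 4 small domains of 100, 100, 90 and 80 kb. Its domains held 6, 1, 5 and 0 loop ends. Replicate 2 divided the same 370 kb otherwise, with 4 level 0 domains over it, of 380, 160, 100 and 220 kb. None of the 4 members was found there within 10 kb at both boundaries, and 2 of the 10 loops with an end in the run were called in replicate 2. Of all replicate 1 loops with an end in a small domain, 49.4% had both anchors in 1 loop of replicate 2. Among all other loops of replicate 1 it was 45.7%.

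The run chr5:217740001-218090000 of replicate 1 was found again in larger part. Its domains of 100, 80 and 80 kb, from position 217830001, were level 0 domains of the same boundaries in replicate 2. In place of the first, of 90 kb, replicate 2 had a 60-kb domain and the end of a 200-kb domain. This run held 18 loop ends, and 8 of its 10 loops had both ends within it. Of these 10 loops, 4 were called in replicate 2. The third run of replicate 1, chr2:201840001-202170000, had 6 loop ends and lay under 180-kb and 410-kb level 0 domains of replicate 2. Of its 4 loops, 0 were called in replicate 2.

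The longest runs of replicate 2 had 5 members each. In chr3:12830001-13260000 (60, 80, 90, 100 and 100 kb), the middle member had identical boundaries at level 0 in replicate 1, and the last pair lay inside a single 640-kb domain. This run was rich in loops, with 23 loop ends, 12 of them in its last member, and 10 of its 14 loops were also called in replicate 1. The loop from 5 to 145 kb into the run had 104 contacts in replicate 2, 17.2 times the number expected from the surrounding contacts, and 42 contacts in replicate 1, 14.2 times the expected number. Most loops of this run were thus called in both replicates while the domain calls over them differed. This did not hold for the loops of the other runs named here.

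In the run chr4:173990001-174410000 (80, 90, 90, 70 and 90 kb), with 6 loop ends, replicate 1 had only a 400-kb and a 110-kb level 0 domain, and the first member was a level 1 sub-domain of the 400-kb one. In the run chr6:150940001-151360000 (60, 80, 90, 100 and 90 kb), with 18 loop ends, the last 3 members were level 0 domains of replicate 1 as well, and the first pair together made up most of 1 domain of 160 kb. Of the loops with an end in the chromosome 4 run, 1 of 4 was called in replicate 1, and 5 of 12 for the chromosome 6 run. Of all replicate 2 loops with an end in a small domain, 31.5% had both anchors in 1 loop of replicate 1. Among all other loops of replicate 2 it was 30.2%.

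**Figure D2:**
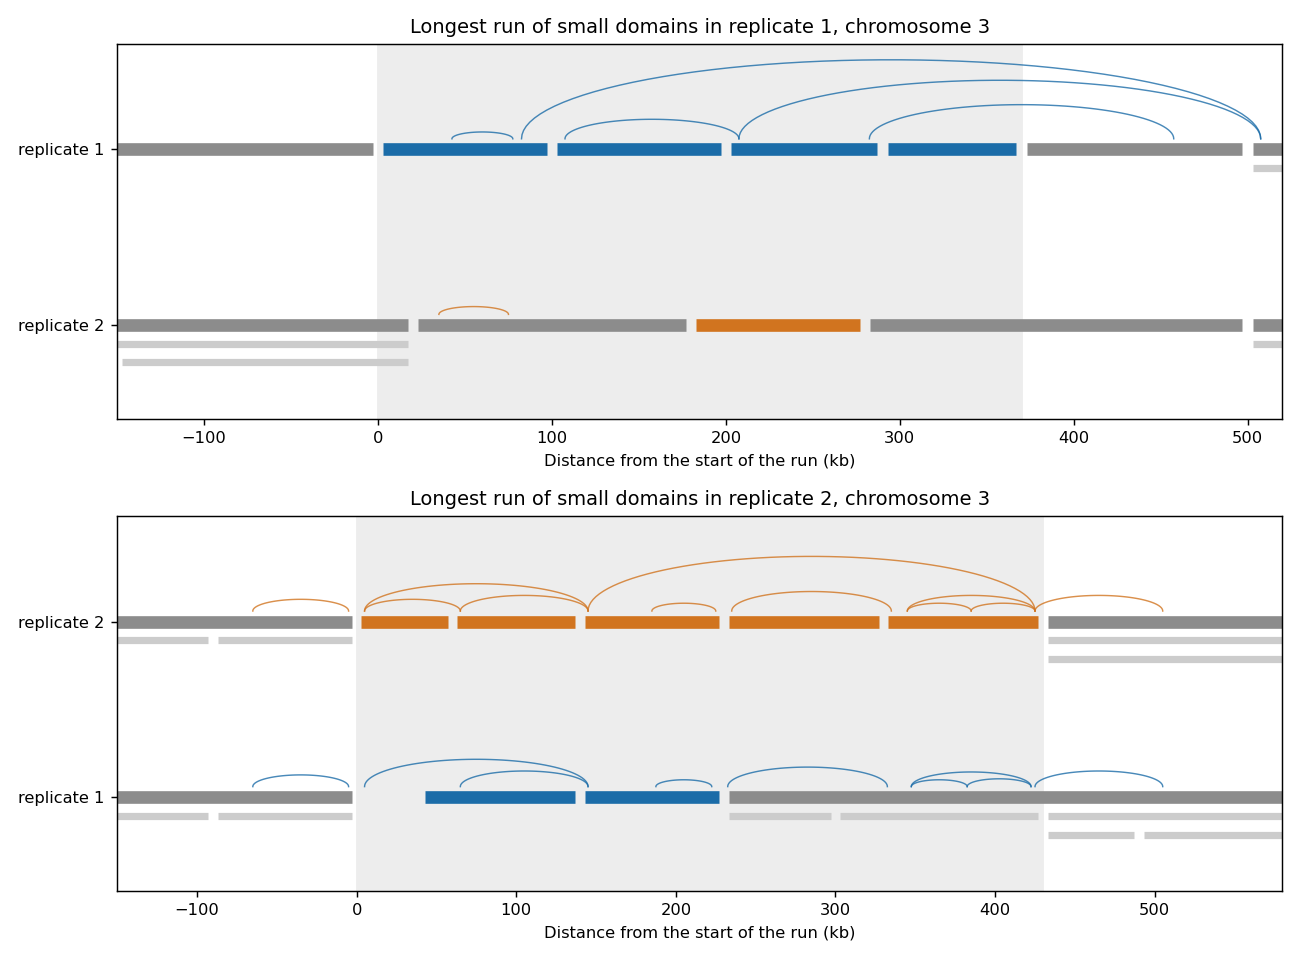
The longest run of small domains of each replicate (shaded, 370 kb with 4 members and 430 kb with 5), with the replicate that has the run drawn above the other; the horizontal axis is the distance in kb from the start of the run. Thick bars are level 0 domains (coloured where small, grey otherwise), thin bars sub-domains, and arcs join the ends of loops that lie entirely in the window, their height set by length and capped; in the lower map most arcs recur, while the last 2 members of the run lie in a 640-kb domain of replicate 1.

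Loop ends were denser in small domains than in other level 0 domains. Replicate 1 had 26.5 loop ends per Mb of small domain against 15.6 per Mb of other level 0 domain, and replicate 2 had 41.1 against 23.6, a ratio of 1.72 ± 0.0331 (SD, n = 2). With anchors of the same start and end counted once, small domains had 23.2 anchors per Mb in replicate 1 and 21.3 in replicate 2, against 13.3 and 12.6 in other level 0 domains. In replicate 1 a place with anchors of more than 1 size can still count more than once, so the levels of the replicates are not comparable. With every loop end counted again, but on the 10-kb anchors of replicate 1 alone, there were 8.67 loop ends per Mb against 6.49, a ratio of 1.34. The density fell with each class of size, from small domains through 20.6 per Mb at 110 to 200 kb, 17.5 at 210 to 400 kb and 14.4 at 410 to 800 kb to 9.67 above 800 kb in replicate 1, and through 30.7, 27.0 and 21.9 to 13.4 per Mb in replicate 2. It was higher in small than in other level 0 domains in all 10 segments of the chromosome in both replicates, with ratios of 1.23 to 2.13 in replicate 1 and 1.23 to 3.22 in replicate 2. The ratio was highest in segment 4, where level 0 domains were longest. There small domains had 19.3 loop ends per Mb in replicate 1 and 39.4 in replicate 2, and other level 0 domains 9.09 and 12.3.

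Small domains and other level 0 domains differed less once position was matched. Loop ends were densest near boundaries in small and in other level 0 domains alike, and 24.7% of the length of small domains lay within 10 kb of a boundary in replicate 2, against 6.06% of the length of other level 0 domains. Within 10 kb of the nearest boundary, small domains had 58.3 loop ends per Mb and other level 0 domains 49.9 in replicate 1, and 96.4 against 80.5 in replicate 2. From 20 to 30 kb the order was turned, with 11.6 against 15.2 per Mb in replicate 1 and 13.6 against 19.3 in replicate 2. Had small domains carried the density that other level 0 domains have in the same segment of a chromosome and at the same distance from a boundary, they would have held 27.1 loop ends per Mb in replicate 1 and 40.2 in replicate 2. The measured densities were 0.977 and 1.02 times these values. Sub-domains of up to 100 kb, which share the size and not the level, had 25.7 loop ends per Mb in replicate 1 and 39.8 in replicate 2, next to 26.5 and 41.1 in small level 0 domains.

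**Figure D3:**
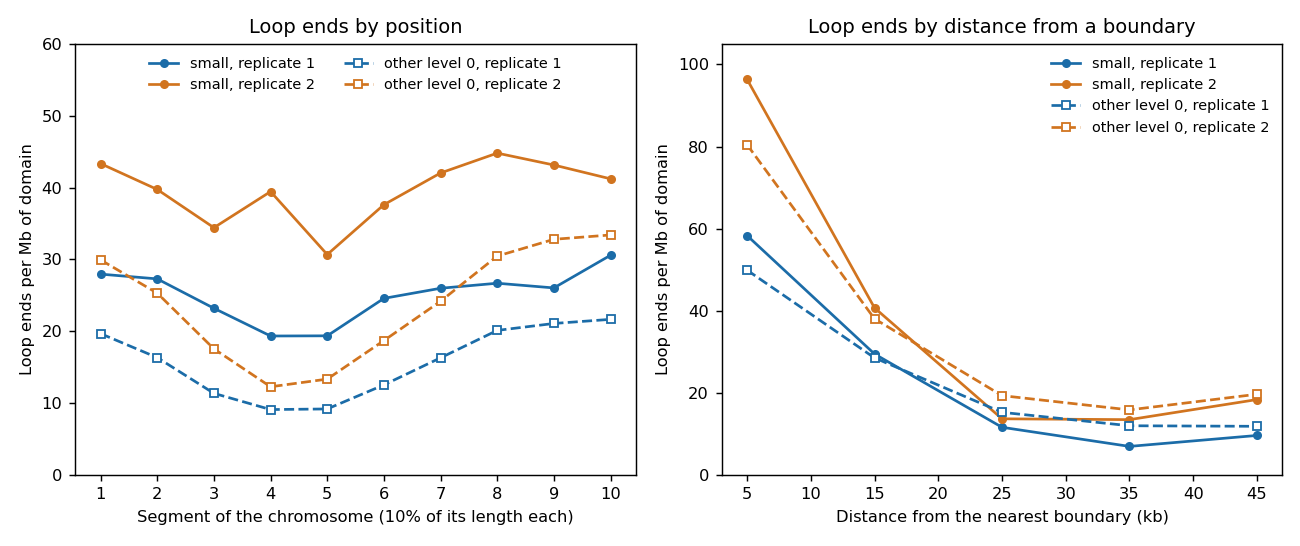
Loop ends per Mb of domain for small domains (filled circles) and other level 0 domains (open squares) in both replicates, on the left by segment of the chromosome (each 10% of its length) and on the right by distance in kb from the nearest boundary of the domain (points at the middle of 10-kb bins). Small domains lie above other domains in each segment, whereas by distance the curves cross between the second bin, 29.4 against 28.5 per Mb in replicate 1, and the third bin, 11.6 against 15.2 per Mb.

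A single small domain held few loop ends. The median was 2 in replicate 1 and 3 in replicate 2, against 4 and 6 for other level 0 domains, and 9.41% of small domains in replicate 1 and 31.7% in replicate 2 held 5 or more. At least 1 loop end was found in 79.2% of small domains in replicate 1 (interval 76.7 to 81.4%) and 82.0% in replicate 2 (interval 79.8 to 84.0%), against 89.3% and 91.0% of other level 0 domains. With 10-kb anchors only, the share of small domains fell to 45.3% in replicate 1 and was the same in replicate 2. Of the 50-kb domains, the smallest called, 10 of 42 in replicate 1 and 8 of 54 in replicate 2 held none. In replicate 1, the anchors in small domains were finer, with 47.8% of loop ends on 5-kb anchors against 32.8% in other level 0 domains, and 19.5% against 25.7% on 25-kb anchors.

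The members with the most loop ends in replicate 1 were chr1:178710001-178810000 and chr3:10280001-10380000, each of 100 kb with 9 loop ends. In both, 3 loops left to the right, 2 left to the left and 2 stayed inside. In replicate 2, chr3:22420001-22480000 (60 kb) and chr3:161410001-161490000 (80 kb) held 16 each. The first sent 10 loops to the left, 4 to the right and had 1 inside, and the second sent 6 to each side and had 2 inside. These 4 domains were singled out after their values were seen.

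Loops that touched a small domain mostly left it. In replicate 1, 1922 loops (11.4% of all loops) had an end in a small domain, and in replicate 2, 3353 loops (13.1%). Both ends lay inside the small domain for 21.9% of these loops in replicate 1 (interval 20.1 to 23.8%) and 17.4% in replicate 2 (interval 16.2 to 18.8%), against 72.1% and 70.3% of all other loops inside their domain. The other end was in the next level 0 domain for 56.4% in replicate 1 and 57.4% in replicate 2, past 1 whole level 0 domain for 15.2% and 18.2%, and past at least 2 for 5.88% and 5.61%. For all other loops the next domain took 20.1% and 21.5%. Loops with an end in a domain of 110 to 200 kb and none in a small domain were intermediate, with 40.9% inside in replicate 1 and 38.0% in replicate 2. Size limits this share, since the shortest loop called was 35 kb in replicate 1 and 40 kb in replicate 2. Loops inside small domains had a median length of 50 kb in both replicates.

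**Figure D4:**
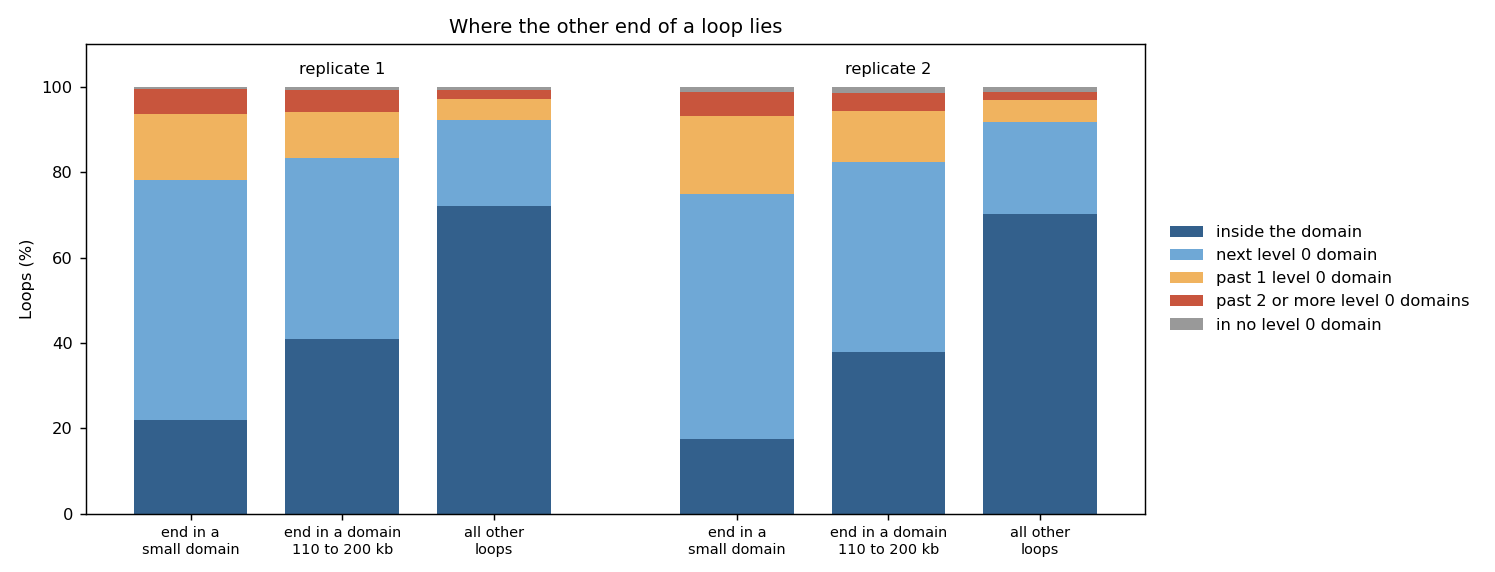
Percent of loops whose other end lay inside the same level 0 domain, in the next one, past 1, past 2 or more, or in no level 0 domain, for loops with an end in a small domain, loops with an end in a domain of 110 to 200 kb and none in a small one, and all loops without an end in a small domain (which include the second bar), in both replicates. The share inside is 21.9% and 17.4% for small domains against 72.1% and 70.3% for all other loops.

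Small domains had a small domain at the other end about as often as other domains did, with overlapping intervals. Loops between a pair of different small domains made up 6.50% of the loops that touched a small domain in replicate 1 (125 loops) and 6.80% in replicate 2 (228 loops). Where a loop end in a small domain had its partner in another domain, that partner was small in 15.5% of cases in replicate 1 (interval 13.8 to 17.3%) and 15.4% in replicate 2 (interval 14.2 to 16.8%). The same share for loop ends in other level 0 domains was 14.4% (interval 13.7 to 15.1%) and 16.4% (interval 15.8 to 17.0%). Loops left on both sides of 29.1% of small domains in replicate 1 and 46.7% in replicate 2, against 29.7% and 45.7% of other level 0 domains.

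Small domains were also jumped more often. A loop from the domain before to the domain after was found over 21.0% of small domains in replicate 1 (interval 18.7 to 23.4%) and 32.5% in replicate 2 (interval 29.9 to 35.1%). This compares with 16.8% and 24.0% of domains of 110 to 200 kb, and 10.3% and 15.3% of all other level 0 domains. Any loop, however long, spanned 39.8% and 55.2% of small domains in replicates 1 and 2, against 24.5% and 33.2% of the others, and a shorter domain takes a shorter loop to be spanned. Small domains that were jumped and held no loop end themselves made up 6.88% in replicate 1 (79 domains) and 9.03% in replicate 2 (113 domains). That share is not given for other level 0 domains, so it is not shown to be particular to small domains.

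Loops with an end in a small domain, whether inside it or leaving it, together had a higher contact ratio than all other loops, but those inside small domains did not in both replicates. Observed contacts were divided by the number expected from the donut-shaped surroundings of a loop, and this ratio had a median of 5.58 in replicate 1 (quartiles 3.85 and 7.69) against 4.86 for all other loops (quartiles 3.54 and 6.90), and 4.84 in replicate 2 (quartiles 3.81 and 6.21) against 4.38 (quartiles 3.48 and 5.63). Loops inside small domains had a median of 6.54 and loops leaving them 5.31 in replicate 1, whereas in replicate 2 it was 4.34 inside, below the 4.38 of all other loops, and 4.91 for leaving loops. The gap between loops at small domains and all other loops was narrower at a single anchor size in replicate 1, with medians of 7.72 against 7.51 at 5 kb, 5.09 against 4.69 at 10 kb and 3.33 against 3.12 at 25 kb. The median count of contacts was the same for loops at small domains and all other loops, 21 in replicate 1 and 32 in replicate 2, and the median length was 100 kb against 120 kb in replicate 1 and 130 kb against 120 kb in replicate 2.

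A loop that joined both boundaries of a small domain, with an anchor touching the 2 kb on either side of each, was found for 10.9% of small domains in replicate 1 (125 domains, interval 9.22 to 12.8%) and 24.8% in replicate 2 (310 domains, interval 22.5 to 27.2%). In replicate 2 this was above the 18.4% (interval 16.9 to 20.1%) of domains of 110 to 200 kb, whereas in replicate 1 the 10.3% of that class (interval 9.07 to 11.6%) differed by less than counting error. All other level 0 domains together had 7.94% and 13.0%. With a window of 10 kb the share was 21.8% in replicate 1. In replicate 2 it stayed at 24.8%, where it could not change, since its 10-kb anchors lie on the same 10-kb grid as the boundaries. The part of anchor size in the distance between the replicates was not tested.

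Of the 156 small domains with identical boundaries in both replicates, 18 were joined in this way in replicate 1 and 42 in replicate 2. In both replicates 13 were joined, 5 of them by loops of at least 20 contacts in each replicate. The same counts for other identical level 0 domains are not given here. The one that ranked first by the smaller of its ratios, chr3:160480001-160560000, had 23 contacts in replicate 1 (7.07 times the expected number) and 118 in replicate 2 (6.62 times). The next, chr4:216220001-216310000, had 61 contacts (6.32 times) and 151 contacts (7.58 times) between the same anchors, chr4:216220001-216230000 and chr4:216310001-216320000, in both replicates. The loop at chr7:137370001-137470000 had 23 contacts in replicate 1 (4.82 times) and 56 in replicate 2 (5.03 times), and its anchors lay just outside the domain on both sides in replicate 1 and on the right in replicate 2. The domain itself held 0 loop ends in replicate 1 and 1 in replicate 2.

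Each member was then looked for in the replicate that was not used to choose it. Of the small domains of replicate 1, 32.4% (372 domains, interval 29.8 to 35.2%) had a level 0 domain with both boundaries within 10 kb in replicate 2, and 28.9% of those of replicate 2 (362 domains, interval 26.5 to 31.5%) had one in replicate 1. For all other level 0 domains the share was 29.4% (interval 28.3 to 30.6%) and 29.5% (interval 28.3 to 30.6%), so that the intervals overlapped. Among those of 110 to 200 kb it was 34.3% (interval 32.3 to 36.2%) and 34.4% (interval 32.4 to 36.3%). Small domains of replicate 2 thus lay below that class beyond counting error, while in replicate 1 the intervals overlapped. The matched level 0 domain was itself of up to 100 kb for 336 of the 372 and 336 of the 362. A further 20.8% of small domains of replicate 1 (239 domains, interval 18.6 to 23.3%) and 20.6% of replicate 2 (258 domains, interval 18.5 to 23.0%) were present only as a sub-domain, against 9.93% and 10.1% of all other level 0 domains and 16.6% and 15.4% of those of 110 to 200 kb.

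A larger group was not found as a domain of any level but lay inside a level 0 domain of over 100 kb, 37.0% in replicate 1 (425 domains, interval 34.3 to 39.9%) and 41.2% in replicate 2 (516 domains, interval 38.5 to 44.0%). Among domains of 110 to 200 kb this was 28.9% and 30.5%. The remaining 9.76% and 9.19% had no match and crossed a level 0 boundary of the other replicate, lay in a gap or lay inside a domain of up to 100 kb. The part of size alone in these differences was not tested.

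**Figure D5:**
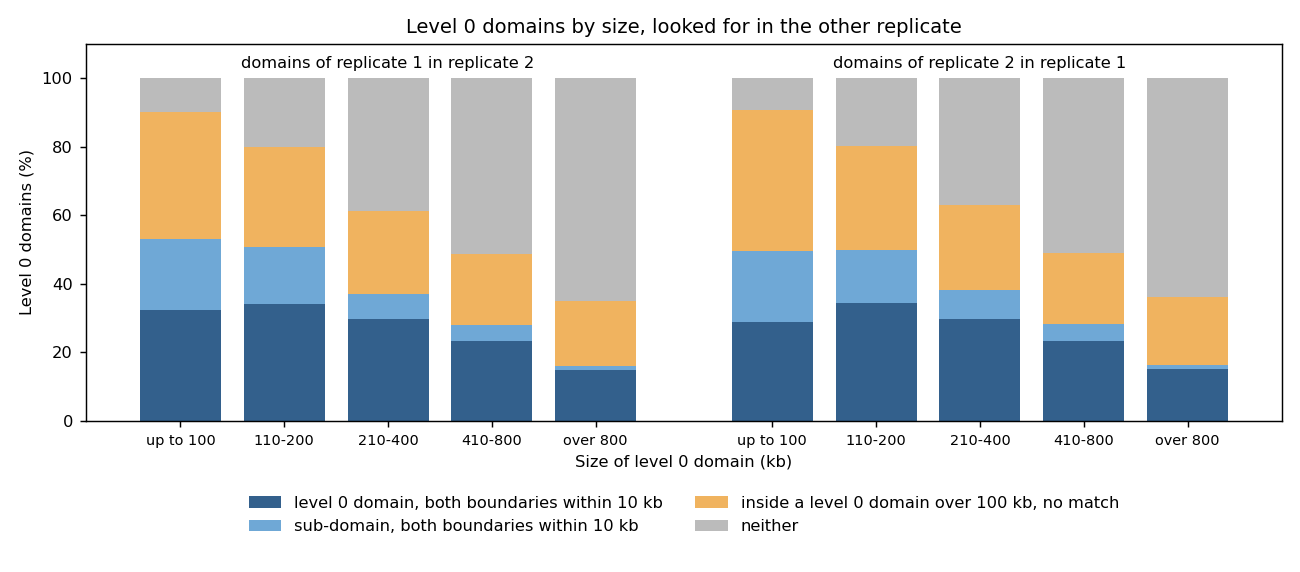
Percent of level 0 domains, by size in kb, that were found in the other replicate as a level 0 domain or only as a sub-domain (both boundaries within 10 kb), that lay inside a level 0 domain of over 100 kb without a match, or that did neither. The left bars are domains of replicate 1 looked for in replicate 2 and the right bars the reverse; the 2 middle classes together hold 57.8% and 61.9% of small domains.

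Of the small domains that matched a sub-domain, 182 of the 239 in replicate 1 (76.2%, interval 70.4 to 81.1%) and 189 of the 258 in replicate 2 (73.3%, interval 67.5 to 78.3%) did so at level 1, the first nested layer. Level 1 also held most sub-domains of up to 100 kb in the replicate searched, 58.7% in replicate 2 for members of replicate 1 and 58.0% in replicate 1 for members of replicate 2. Level 2 took 51 and 61 of the matches, and deeper levels 6 and 8. Over these members, the level 0 domain of the other replicate was a median of 310 kb long (quartiles 220 and 520 kb) for replicate 1 and 320 kb (quartiles 220 and 530 kb) for replicate 2. Over members inside a larger domain with no match it was 280 and 290 kb. Of the 664 members of replicate 1 (57.8%) and 774 of replicate 2 (61.9%) that were sub-domains or lay inside a larger domain, 69.0% and 67.7% touched an edge of that domain. The larger domain held 1 level 0 domain of the member's own replicate in 20.6% and 19.0% of cases, 2 in 47.3% and 46.5%, and 4 or more in 13.3% and 16.9%. Where 2 domains fill the larger one, each touches an edge by layout alone. The same shares for other level 0 domains are not given, so neither is shown to be particular to small domains.

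Boundaries were also looked for singly. Within 10 kb, at any level, both boundaries were found for 53.9% of small domains of replicate 1 (interval 51.0 to 56.8%) and 50.1% of replicate 2 (interval 47.4 to 52.9%), against 54.1% (interval 52.8 to 55.3%) and 54.3% (interval 53.1 to 55.6%) of other level 0 domains. Neither boundary was found for 8.54% and 9.11% of small domains in replicates 1 and 2. The share with both was thus level with other domains in replicate 1 and lower in replicate 2. At level 0 alone it was lower in both, with 32.8% (interval 30.2 to 35.6%) and 29.3% (interval 26.9 to 31.9%), against 37.6% (interval 36.4 to 38.9%) and 37.5% (interval 36.3 to 38.8%).

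The smallest members recurred least. At 50 kb, 11.9% of the domains of replicate 1 (interval 5.19 to 25%) and 9.26% of those of replicate 2 (interval 4.02 to 19.9%) were found at level 0 in the other replicate, against 36.0% and 31.0% at 100 kb. Just outside the size limit, at 110 kb, it was 37.2% and 36.9%. A shift of 10 kb was allowed at every size, but no domain of any level was under 50 kb. A 50-kb domain could thus match only domains of its own size or longer, which limits its share by construction. The part of this limit in the difference was not tested. Only 1 of the 50-kb domains was identical in both replicates, chr9:124510001-124560000, which held 8 loop ends in replicate 2.

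Members with loops were found again more often. Of the small domains with a loop end, 57.2% in replicate 1 (interval 54.0 to 60.4%) and 53.0% in replicate 2 (interval 50 to 56.1%) matched a domain of any level in the other replicate, against 38.1% (interval 32.2 to 44.4%) and 33.8% (interval 27.9 to 40.2%) of those without. Loop ends per Mb were 29.4 and 45.5 in members found at level 0, 29.8 and 47.2 in members found as a sub-domain, and 22.4 and 34.5 in members inside a larger domain without a match, in replicates 1 and 2. Loops and domains of 1 replicate come from the same contacts, and the part of local contact number in this difference was not tested. By position, 58.0% of distal members and 46.7% of those in the middle 60% of the chromosomes were found at any level in replicate 1, and 50.1% and 48.7% in replicate 2.

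Identical boundaries at level 0 in both replicates were found for 156 small domains, 13.6% of those of replicate 1 (interval 11.7 to 15.7%) and 12.5% of those of replicate 2 (interval 10.8 to 14.4%). Among other level 0 domains 550 were identical, 9.19% (interval 8.49 to 9.95%) and 9.16% (interval 8.45 to 9.91%). These others include all larger sizes, and the share for domains of 110 to 200 kb alone is not given here. Of the identical small domains, 108 were distal (69.2%, interval 61.6 to 75.9%), against 275 of the 550 others (interval 45.8 to 54.2%). A loop end in both replicates was held by 135 (86.5%, interval 80.3 to 91.0%), against 482 of the others (87.6%, interval 84.6 to 90.1%), and 10 held none in either replicate. The 5 with the most loop ends over both replicates were chr3:161410001-161490000 with 6 in replicate 1 and 16 in replicate 2, chr5:78910001-78990000 with 5 and 11, chr5:206250001-206350000 with 5 and 11, chr1:56020001-56100000 with 6 and 9, and chr1:197760001-197850000 with 5 and 8. Their neighbours could differ between the replicates. Beside chr3:161410001-161490000 they were 850 and 610 kb in replicate 1 and 190 kb on both sides in replicate 2, while chr1:197760001-197850000 had neighbours of 110 and 270 kb (replicate 1) or 120 and 270 kb (replicate 2).

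The opposite case, identical boundaries at a different level, was found for 76 small domains of replicate 1 (6.62%, interval 5.32 to 8.21%) and 94 of replicate 2 (7.51%, interval 6.18 to 9.11%). The same share of other level 0 domains is not given here. The deepest of replicate 1 was chr10:136460001-136540000 (80 kb), a level 3 sub-domain of replicate 2 in the 800-kb domain chr10:136410001-137210000, which held 9 sub-domains and took the place of 4 level 0 domains of replicate 1. It was followed by chr9:33750001-33840000 and chr3:230870001-230960000, both at level 3 in domains of 610 and 500 kb of replicate 2. In the other direction, chr8:139980001-140060000 and chr7:146730001-146820000 of replicate 2 were level 3 sub-domains of 530-kb and 320-kb domains of replicate 1, and chr1:249190001-249270000 was at level 2 in a domain of 1350 kb, in place of 5 level 0 domains. Loop ends were present in both replicates in each of these 6 domains, with 5 and 3 in chr10:136460001-136540000 and 6 and 6 in chr9:33750001-33840000. Of all members found as a sub-domain, 84.1% in replicate 1 and 87.6% in replicate 2 held a loop end in their own replicate.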

How the data were processed

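Leaf tissue of B73 plants at stage v04 was profiled by Hi-C in replicates 1 and 2, with 4 plants in each. Reads were aligned by the authors to B73 AGPv4 in Juicer. Domains came from runHiC matrices and HiTAD, run with defaults. HICCUPS gave the loops, from Juicer tools 1.9.9 for replicate 1 and 1.14.08 for replicate 2. Each replicate was processed alone. The submitters' processing notes also name CASAVA 1.8. The deposited loop lists hold whole-number counts of contacts, not normalized, the expected contacts of 4 surrounding areas (a signal in the same scale), and q-values, which reached 0.0983 and 0.0977. The lists hold calls only, and unequal anchor sizes affect every comparison of loops between replicates.

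Overlaps were computed with pandas 2.3.3 and numpy 2.4.6 in Python 3.11.15, intervals with scipy 1.17.1 and plots with matplotlib 3.10.9, after a check on lists with known answers. Size is end minus start. Chromosome length is the largest coordinate in the lists. Abutting domains share a boundary. No test was made, since members were chosen on a measured value in 1 condition, and shares have 95% Wilson intervals. Members, measures and the rule for named regions (longest runs, identical members with most loop ends, deepest sub-domain matches, boundary loops with the highest ratios) were chosen with earlier results of these data known. Other size limits, anchor rules, q-values and tolerances were tried. Gene content, repeats and DNA sequence of the regions were not analysed here.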

Additional observations from a re-analysis of the deposited data

How the results depend on the processing

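Of 45 alternative values for 12 measures, 24 stayed within 1 SD of the replicates or, for the number of members, within 1.5 times, and 21 did not. The 24 values from leaving out a replicate are not counted among these, since with n = 2 each replicate lies within 1 SD of the mean by construction. Leaving aside the number of members, the SD differed widely between measures, from 0.0717 for the share undivided to 10.3 for loop ends per Mb. A fall from 33.8 to 24.9 loop ends per Mb with 10-kb anchors only therefore counted as within it. The counts of 24 and 21 thus depend on how far the replicates differed and do not measure robustness. Without either replicate the range was 1148 to 1251 small domains, 99.7 to 99.8% undivided, 58.0 to 60.8% in distal regions, 33.4 to 36.1% next to another small domain, neighbours of 190 to 200 kb, 26.5 to 41.1 loop ends per Mb, 79.2 to 82.0% with a loop end, 78.1 to 82.6% of loops leaving, 10.9 to 24.8% joined boundary to boundary, 28.9 to 32.4% found at level 0, 20.6 to 20.8% found as a sub-domain and 37.0 to 41.2% inside a larger domain. As means of both replicates, a size limit of 80 kb gave 667.5 domains, all of them (100%) undivided, 21.7% next to another, 27.4% found at level 0, 22.0% as a sub-domain and 45.5% inside a larger domain. A limit of 120 kb gave 98.9% undivided, 46.1% next to another, 77.2% of loops leaving, 20.4% found as a sub-domain and 34.9% inside. Any overlap of an anchor gave 82.7% of small domains with a loop end. With 10-kb anchors only it was 63.7%, with 45.3% in replicate 1 and 82.0% in replicate 2, and 84.9% of loops left, with 6884 loops of replicate 1 remaining. The cause of these shifts was not tested. Counting anchors of the same start and end once gave 22.2 per Mb, with 23.2 in replicate 1 and 21.3 in replicate 2, against 13.3 and 12.6 in other level 0 domains. With identical boundaries, 13.0% were found at level 0, 7.07% as a sub-domain and 47.9% inside, and within 20 kb these were 36.4%, 24.4% and 35.6%. The ratio of loop ends per Mb in small over other level 0 domains was 1.34 to 1.89 under the alternatives for loops and size. No paired analysis was possible because both replicates belong to the same group. The lists hold no loop under 35 kb in replicate 1 or 40 kb in replicate 2, which limits what is seen inside 50-kb domains.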
